A study of Mus musculus with 8 samples.

Results

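Mouse embryonic stem (ES) cells that had been neuralized with a Wnt inhibitor alone, called the Wi control here, were compared with embryonic cortex dissected at E12.5 (embryonic day 12.5). Each side was 1 Agilent single-colour array out of 8 in the series. The 2 arrays were chosen by their labels. The other 6 arrays, of E12.5 diencephalon with hypothalamus, E12.5 eye and 4 sorted cultures, are used only to show how the pair differs from the rest. The comparison addresses how far cells neuralized without an added caudalizing or ventralizing factor resemble the dorsal telencephalon, the part of the forebrain that forms the cortex.

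The Wi control was E14Tg2A, a male ES cell line of 129/Ola background, grown as floating aggregates and then in adhesion on laminin in a serum-free medium with N2 and B27 supplements. The Wnt pathway was blocked with IWR-1-endo at 5 µM from day 3, and RNA was taken at 10 days in vitro. The labels name no sort for these cells, and the array is taken here to read the whole culture. Cortex came from 3 Sv129s6 embryos of mixed sex and holds every cell type that was dissected with it, vessels and blood included. Each array received 50 ng of Cy3-labelled RNA pooled over 3 sets of experiments, so each group has 1 array, no replicate and no p-value. The other cultures were K/l-EB5, another male line with green fluorescent protein at Rax, given the same inhibitor and then activin A (10 ng/ml) or the Hedgehog agonist SAG (100 nM) 12 h later, and sorted into RAX-positive and RAX-negative cells.

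Without outside signals, ES cells that leave pluripotency in serum-free medium tend to become neural and take on an anterior character. Wnt signalling moves neural tissue towards posterior fates, and Hedgehog signalling moves it towards ventral ones. Within the dorsal telencephalon, Emx1, Emx2, Lhx2 and Pax6 act in progenitors, Eomes marks the intermediate progenitors, and Tbr1, Neurod2 and Neurod6 mark young glutamatergic neurons.

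A level is given as log2 of the scanner software's processed signal over the 75th percentile of its array. A gene was read from the probe with its highest mean over the 8 arrays, and was counted as detected where the brighter of the 2 sides was well above background. It was called higher or lower where the sides differed by at least 2-fold. Of 62976 spots on each array, 67.5% of the gene spots of the Wi control and 62.5% of those of cortex were well above background, and 0 spots were saturated. Repeated spots of a probe differed by a median SD of 0.0626 in the Wi control and 0.0715 in cortex (log2), and the scanner software's own error for a difference was a median of 0.204 in log2, or 1.15-fold. That error covers the measurement of 2 pools and not the spread between cultures or embryos. The Wi control lay alone on another slide, while cortex shared a slide with the other 6 arrays. Slide, cell line, strain background and culture cannot be told apart from the difference between the groups.

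Of 26080 detected genes, 6219 (23.8%) were higher in the Wi control, 4734 (18.2%) were lower, and 42.0% differed either way by at least 2-fold. The median difference over all detected genes was 0.10 in log2. A difference of at least 4-fold was measured for 2374 genes in the higher direction and 1221 in the lower direction. At 16-fold or more there were 379 higher and 178 lower genes. In 2619 genes only the Wi control was well above background, and in 1034 genes only cortex was. With the arrays scaled to their medians, the median difference became -0.29, and 4231 genes were higher and 7478 lower, so that 36.1% of the called genes were higher where the main scaling gave 56.8%. Shares of higher and lower genes below are read against the main values.

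**Figure D1:**
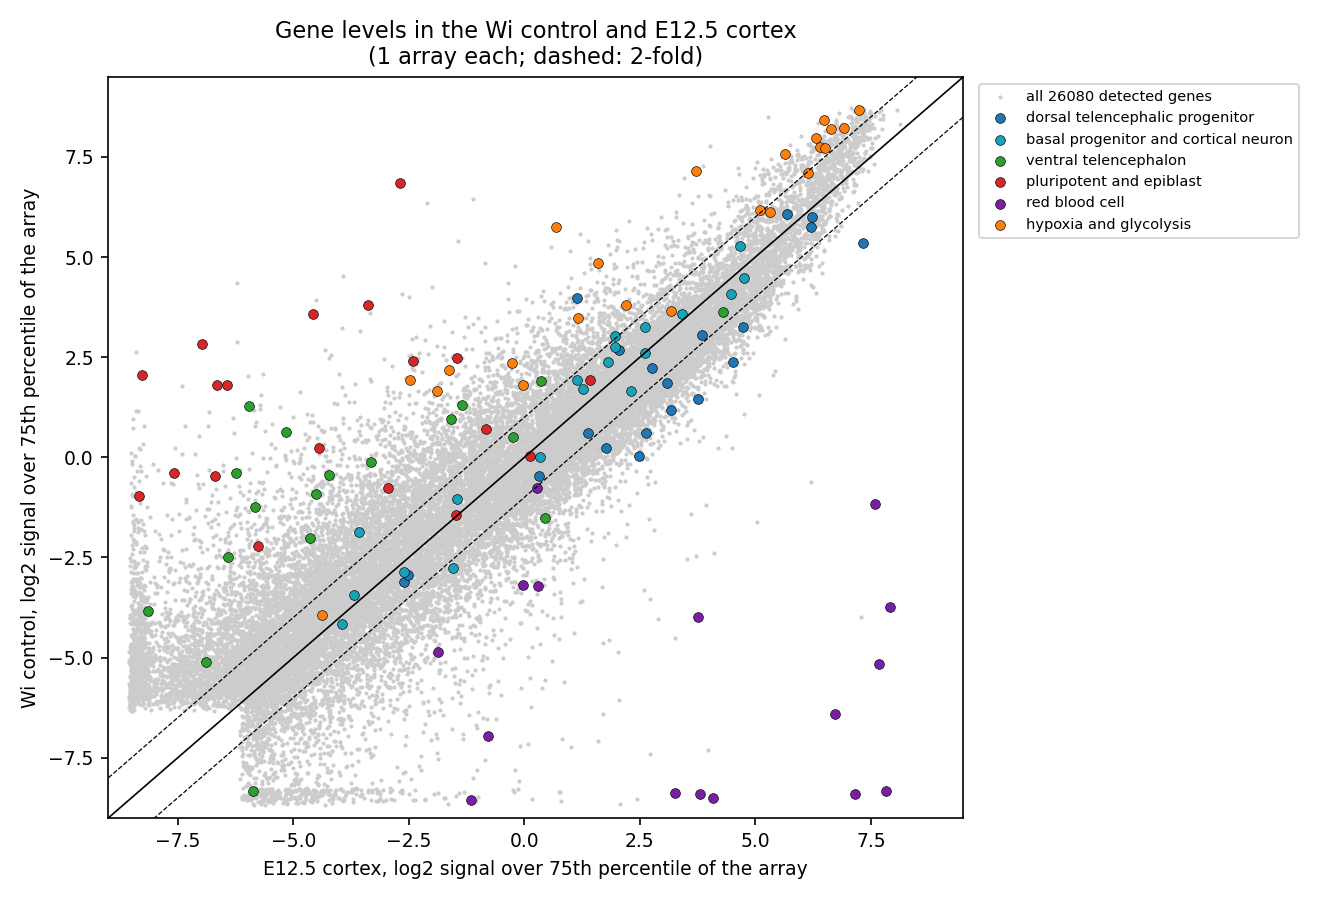
Level of each detected gene in E12.5 cortex (horizontal axis) and in the Wi control (vertical axis), both log2 signal over the 75th percentile of the array, with 1 array each and members of 6 gene lists in colour. The solid line marks equal levels and the dashed lines a 2-fold difference. Cortical neuron genes lie along the line, dorsal progenitor genes mostly on or below it, ventral telencephalic and pluripotency genes mostly above it, and all 16 red blood cell genes below it.

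Genes of cortical neurons were at levels close to those of the tissue. Of 19 detected genes on the list for basal progenitors and cortical neurons, 2 were higher in the Wi control, 1 was lower and 16 differed by less than 2-fold, against 23.8% higher and 18.2% lower among all detected genes. The median of the list was 0.24. In a bulk RNA pool, fewer cells of a type and less RNA per cell cannot be told apart, so levels give no share of cells. Tbr1, a transcription factor of early-born deep-layer neurons, was at 4.49 in the Wi control and 4.75 in cortex (probe at chr2:61652093-61652152, mm9), and its 2 probes gave -0.27 and 0.98. Neurod2 was at 3.26 and 2.62, and Neurod6 at 2.37 and 1.81. These basic helix-loop-helix factors act in differentiating glutamatergic neurons of the cortex. Eomes, the intermediate progenitor factor, was at 1.67 and 2.31. Bcl11b, a factor of subcerebral projection neurons, was at 2.61 and 2.62, and Sox5, which acts in deep-layer neurons, at 5.27 and 4.67. The 2 higher genes were Slc17a7, a vesicular glutamate transporter at -1.87 and -3.58, and Nrn1, a neurite growth protein at 3.04 and 1.96. The median of the list was -0.16 with the arrays scaled to their medians.

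Some of these neuronal genes, and the progenitor gene Emx1, separated the Wi control from the sorted cultures. Tbr1 was between -2.24 and -1.82 in the 4 sorted cultures, Neurod2 between -6.93 and -4.58, and Neurod6 between -8.33 and -5.96. Emx1 was at 2.22 in the Wi control and 2.75 in cortex, and between -6.95 and -4.39 in the sorted cultures. The Wi control and cortex stood together at the high end for these 4 genes, and no sorted culture overlapped them. The share of all genes with this pattern was not counted. Eomes was closer, at 0.75 in RAX-negative cells after activin against 1.67 in the Wi control. The median level of the list for basal progenitors and cortical neurons was 1.81 in the Wi control and 1.54 in cortex. In the sorted cultures it was between -2.29 and -1.29. Diencephalon and eye had low levels too, with Emx1 at -5.94 and -5.96.

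Genes of dorsal progenitors were lower in the culture or within 2-fold of the tissue, with 1 exception. Of 20 genes on that list, all detected, 9 were lower, 1 was higher and 10 differed by less than 2-fold, with a median of -0.79. Hes5, a Notch effector of progenitors, was at 6.01 in the Wi control and 6.23 in cortex, within 2-fold of the tissue. Emx2 was at 1.45 in the Wi control and 3.76 in cortex, a 4.96-fold difference (chr19:59539142-59539201, mm9). Lhx2, the selector gene of cortical identity, was at 5.36 and 7.33, and was 3.92-fold lower. The orphan nuclear receptor Nr2e1, which keeps neural stem cells dividing, was 4.40-fold lower, at 2.38 and 4.52.

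Dmrta1, a doublesex-related factor of the dorsal telencephalon, had the largest difference of the list in the lower direction, at 0.03 in the Wi control and 2.48 in cortex. Its relative Dmrt3 was at 0.60 and 1.38, within 2-fold, while in diencephalon and eye it was at -6.51 and -6.77. Gli3, the Hedgehog repressor that the dorsal telencephalon needs, was at 3.25 in the Wi control and 4.73 in cortex. Sfrp1, a secreted Wnt antagonist, was at 0.61 and 2.62. For Pax6 the probes differed, with -1.52 on the brighter probe and 0.50 on the other, and for Sp8 with -1.97 and 1.04. With the median of all probes, 7 genes of the list were lower and neither Pax6 nor Sp8 was called. The 1 higher gene, Nr2f2, a nuclear receptor that is strongest in caudal and ventral forebrain, was at 3.97 in the Wi control, 1.14 in cortex and 4.27 in diencephalon. Scaled to the array medians, 12 genes of the list were lower.

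Cajal-Retzius and preplate neurons are the earliest neurons at the surface of the cortex. Of 12 detected genes on their list, 9 were higher in the Wi control and 0 lower, with a median of 1.62. Reln, the secreted signal of Cajal-Retzius cells, was at -0.44 in the Wi control and -2.13 in cortex. The LIM factors Lhx1 and Lhx5 were 8.22-fold and 7.06-fold higher. Lhx5 was also high in diencephalon, at 3.72. Calb2, a calcium-binding protein, was 4.01-fold higher. Trp73, another marker of these cells, was 3.74-fold higher on the chosen probe, whereas the probe that is brightest on these 2 arrays gave -0.31. Between 7 and 9 genes were higher under the other scalings, background corrections and probe rules.

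The cortical hem and choroid plexus form at the dorsal midline and are sources of Wnt and BMP signals. Of 16 detected genes on their list, 3 were higher and 7 lower, with a median of -0.15. Ttr, the carrier of thyroid hormone that choroid plexus makes in quantity, was at -3.30 in the Wi control and 2.59 in cortex, and was 59.5-fold lower. Wnt3a, the hem ligand, was not well above background in the Wi control and was at -4.54 in cortex, at least 5.80-fold lower. Rspo1, an enhancer of Wnt signalling, was 4.08-fold lower, while its relatives Rspo2 and Rspo3 were at 3.33 and 3.28 in the culture against 1.80 and 2.55. Otx2, a forebrain and midbrain factor, was 11.1-fold higher, at 4.47 against 1.00. The Lmx1a gene, active in hem and roof plate, was at 1.10 and 1.45.

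**Figure D2:**
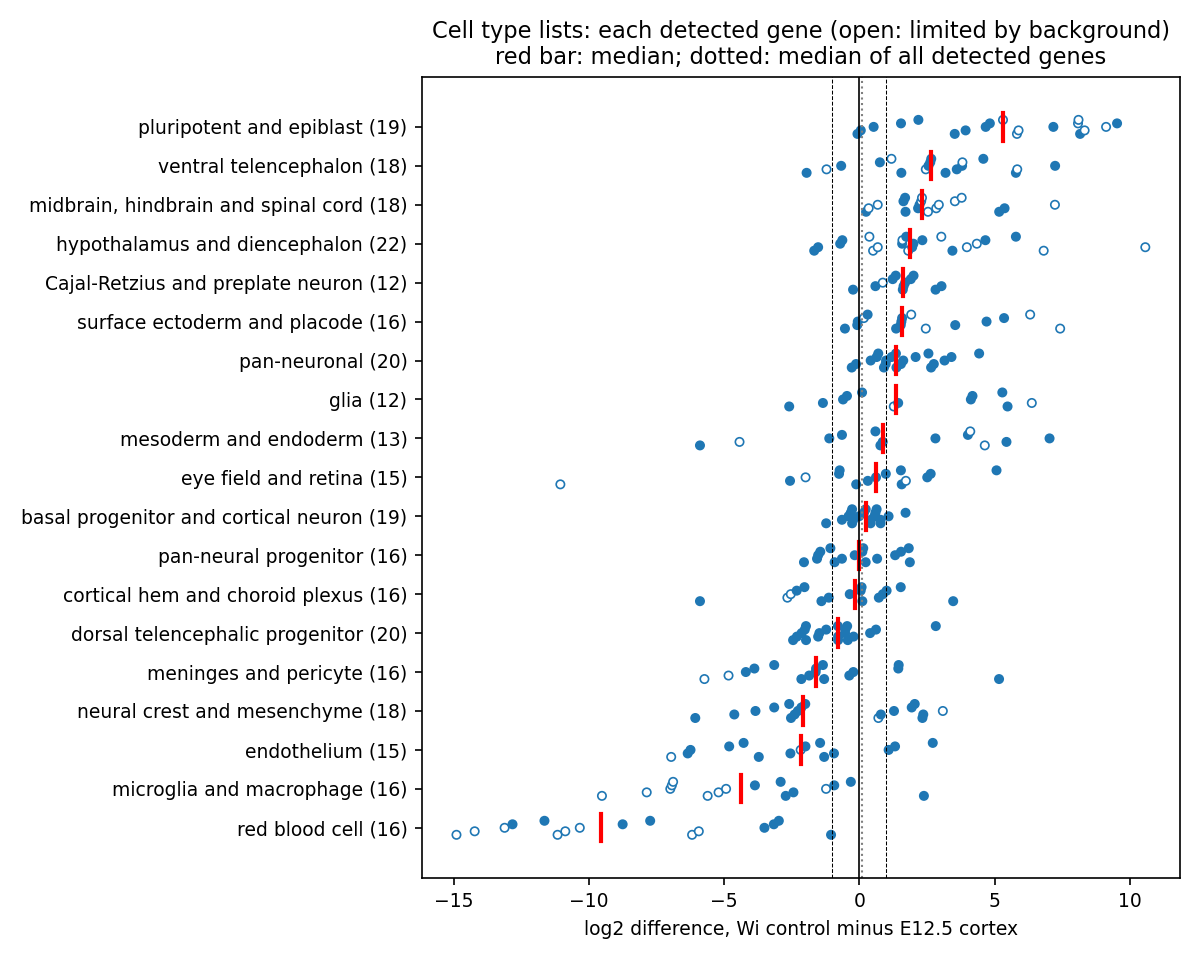
Difference between the Wi control and E12.5 cortex (log2, horizontal axis) for each detected gene of 19 cell type lists, with the number of detected genes in brackets. Open circles are differences limited by background, red bars are list medians, the dotted line is the median of all detected genes and dashed lines mark 2-fold. Pluripotency and ventral telencephalic lists lie furthest to the right, with medians of 5.31 and 2.64, and the red blood cell list lies furthest to the left, at -9.55.

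Genes of the ventral telencephalon, where inhibitory neurons arise, were largely higher in the culture. Of 18 detected genes, 14 were higher and 2 lower, with a median of 2.64. Gad1, the enzyme that makes the transmitter GABA, was at 1.29 in the Wi control and -5.95 in cortex, 151-fold higher (chr2:70439699-70439758, mm9). Its partner Gad2 was 55.4-fold higher. Diencephalon, which also holds GABA neurons, had Gad1 at 1.30, close to the Wi control. Dlx2 and Dlx5, homeobox factors of inhibitory neuron precursors, were 6.32-fold and 12.2-fold higher, and Gsx1, which acts before them in ventral progenitors, was at least 57.3-fold higher. The levels of Dlx2 were 1.31 in the Wi control, -1.35 in cortex and 3.43 in diencephalon.

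Nkx2-1, the factor that defines the medial ganglionic eminence and much of the hypothalamus, was at least 2.32-fold lower, a call that was lost with normexp correction, with the authors' deposited values and where both arrays had to be well above background. It was not well above background in the Wi control, at -8.33, and was at -5.87 in cortex and 3.09 in diencephalon. In the 4 sorted cultures it lay between -0.65 and 4.82. Sox6, which acts in both cortical progenitors and migrating interneurons, was 3.87-fold lower in the Wi control. Lhx6, a factor of interneurons from the medial eminence, was at 1.91 and 0.35 on the chosen probe, but its 3 probes ran from -1.54 to 2.86 and their median was -0.92. Between 10 and 14 genes of the list were higher under the alternatives that keep the 2-fold rule, the fewest where both arrays had to be well above background.

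Genes of the diencephalon and hypothalamus were higher as well, with 15 of 22 detected genes higher, 2 lower and a median of 1.88. Trh, the precursor of thyrotropin-releasing hormone, had the largest difference of all named genes in that direction. It was at 4.35 in the Wi control and not well above background in cortex, at -6.23, at least 1528-fold higher (chr6:92192061-92192120, mm9). RAX-negative cells after activin had still more of it, at 6.58, and diencephalon had 1.42. Dbx1, a progenitor factor, was at 2.57 in the Wi control, -2.09 in cortex and 5.43 in diencephalon. Foxb1, a factor of the mammillary region and hindbrain, was at least 113-fold higher. Foxd1 and Sim1, which act in the ventral and the neuroendocrine hypothalamus, were 2.88-fold and 3.18-fold lower. Where both arrays had to be well above background, 8 genes of the list were higher.

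Genes of midbrain, hindbrain and spinal cord were present at low to moderate levels. Of 18 detected genes, 15 were higher and 0 lower, with a median of 2.30. En2, a midbrain and cerebellar homeobox gene, was at 1.33 in the Wi control and -4.05 in cortex, and between -3.47 and -2.41 in the sorted cultures. Pax3, a dorsal neural tube and neural crest gene, was 36.1-fold higher. Pax2, of the midbrain-hindbrain border, was at -5.30 and -5.55. Where both arrays had to be well above background, 7 genes of the list were higher, and with normexp background correction 10 were.

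Hox genes pattern the axis behind the midbrain. Of 21 detected Hox genes, 15 were higher in the Wi control and 0 lower, all of them below the 75th percentile, with the highest, Hoxc6, at -2.13. Hoxc9, a gene of the thoracic and lumbar level, was at -2.55 in the Wi control, and all 3 tissues had it between -9.12 and -7.85. None of these 15 genes was well above background in cortex, so each of their differences is a lower bound, and the list has 0 higher genes where both arrays must be above background. The 15 genes came from all clusters, with Hoxd8 alone from HoxD.

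Eye field and retina genes were divided, 6 of 15 being higher and 3 lower, with a median of 0.62 that became -0.14 with the authors' deposited values. Rax, the gene whose reporter marked the sorted cultures, was at -4.07 in the Wi control and -3.32 in cortex, against 4.53 in the eye. Six6, another eye field gene, was not well above background in the Wi control. Six3, a factor of the anterior neural plate, was at -0.08 and -5.15 on one probe, while the other probe gave -0.03. Vax2 was 5.70-fold higher. Dct, an enzyme of melanin synthesis, was at 3.98 in cortex and 5.67 in the eye but not well above background in the Wi control, at least 2133-fold lower (chr14:118412029-118412088, mm9).

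Pluripotency genes had the largest median difference of all lists in the higher direction. Of 19 detected genes for pluripotent cells and epiblast, 16 were higher and 0 lower, with a median of 5.31. Only 12 of the 19 were well above background in cortex. The others count as detected through the Wi control alone, and their differences are lower bounds. Pou5f1, a core factor of pluripotency, was at 1.80 in the Wi control and not well above background in cortex, at least 272-fold higher (chr17:35647280-35647340, mm9). The gene has close copies, so its probe may read more than one of them. Zfp42, a marker of undifferentiated ES cells, was at least 276-fold higher, and Dppa5a, an RNA-binding protein of such cells, was at 6.85 against -2.68, 741-fold higher. Utf1, Tdh and Fgf4 were 145-fold, 287-fold and at least 322-fold higher. Fgf5, a marker of the epiblast that follows the ES state, was at least 59.3-fold higher, and Lin28a, a regulator of let-7 maturation, 28.4-fold.

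Klf2 and Klf4, which are also expressed outside pluripotent cells, differed by less than 2-fold. Nanog was at -1.43 and -1.48 on its brightest probe over 8 arrays, while another of its 3 probes gave 6.83. Esrrb had probes at 3.19 and 9.80, and was at least 559-fold higher on the chosen one. Among the sorted cultures, RAX-negative cells after activin had Pou5f1 at 3.86, above the Wi control, and the other 3 had it between -5.05 and -3.60. For Dppa5a the Wi control was the highest of the 8 arrays, with 4.12 in RAX-negative cells after activin.

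Genes of other germ layers were mixed. T (Brachyury), the factor of the primitive streak and early mesoderm, was at 1.18 in the Wi control and -5.86 in cortex, 131-fold higher, and between -7.82 and -1.14 in the sorted cultures. Foxa2, of endoderm and floor plate, was 43.5-fold higher, and Cer1, a secreted Nodal antagonist, at least 24.9-fold. Afp, a yolk sac and liver protein, was at least 21.6-fold lower. In all, 6 of 13 detected genes of mesoderm and endoderm were higher and 3 lower, with a median of 0.87. Epithelial genes stood out among 16 detected genes of surface ectoderm and placodes, 11 of which were higher and 0 lower. In cortex 11 of the 16 were well above background. The others count as detected through the Wi control alone and could not be called lower. Cdh1, the epithelial cadherin, was at least 172-fold higher, and the keratins Krt8 and Krt18 were 40.9-fold and 26.1-fold higher. Lens crystallin Cryaa, at 8.08 in the eye, was at -5.15 and -5.45.

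Blood and vessel genes marked the tissue. All 16 red blood cell genes were lower in the Wi control, with a median of -9.55. Only 8 of them were well above background there. The others count as detected through cortex alone and could not be called higher. Hbb-y, an embryonic beta-like globin, was at 7.82 in cortex and not well above background in the Wi control, at least 30610-fold lower (chr7:111000268-111000327, mm9). Hbb-bh1 and Hba-x, other embryonic globins, were 7274-fold and at least 19191-fold lower, but globin genes share near-identical sequence and their probes cannot be assigned to single copies with certainty. Alas2, the erythroid enzyme of haem synthesis, was at least 1879-fold lower. The 3 tissues were alike here, with Hbb-y between 7.43 and 7.82, and the 4 sorted cultures had it between -6.84 and -5.27.

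Of 16 detected microglia and macrophage genes, 13 were lower and 1 higher, with a median of -4.40. On this list 7 genes were well above background in the Wi control and 16 in cortex. Genes detected through cortex alone could not be called higher. Cx3cr1, the fractalkine receptor of microglia, was at -0.15 in cortex and not well above background in the Wi control. The macrophage genes Mrc1 and F13a1 were at least 127-fold and 233-fold lower. Of 15 detected endothelial genes, 11 were lower and 3 higher, with a median of -2.17. Cldn5, a tight junction protein of brain vessels, was at 2.71 in cortex and -3.53 in the Wi control. Kdr, the receptor for VEGF, was called higher on its chosen probe, at 2.72, and its other probe gave -4.82. Slc2a1 and Slco1c1 were also called higher, and both calls were lost with median scaling, quantile scaling and normexp correction. Esam and Tek, further vessel genes, were 81.5-fold and 19.4-fold lower.

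The list of neural crest and mesenchyme was split. Of 18 detected genes of neural crest and mesenchyme, 10 were lower and 6 higher. The lower genes include the fibrous collagens Col1a1 and Col3a1, which were 8.87-fold and 14.3-fold lower, and Lum, a collagen-binding proteoglycan, at 3.53 in cortex and -2.54 in the Wi control. The higher ones include Sox10 and Tfap2a, factors of the neural crest, which were 5.04-fold and 5.15-fold higher, and Foxd3, at least 8.50-fold higher. Acta2 and Twist1, genes of mesenchyme, were higher too. Twist1 was not called with median scaling, normexp correction or the authors' deposited values. Of 16 detected genes of meninges and pericytes, 11 were lower and 3 higher. Foxc1, which meninges need, was 14.8-fold lower, whereas Ptgds, a prostaglandin synthase, was 35.9-fold higher. Of 24 extracellular matrix genes, 14 were lower and 1 higher, with a median of -1.75. Collagen genes are shared between these lists. All listed red blood cell genes and most listed vessel and mesenchyme genes were thus lower in the Wi control, and their part in the other differences was not tested.

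Neuronal and cell cycle genes differed in opposite directions where they were called, with 1 exception. Of 20 detected pan-neuronal genes, 12 were higher and 0 lower, with a median of 1.36. Nefl, a neurofilament subunit, was at 3.32 in the Wi control and -1.11 in cortex, 21.6-fold higher, and Mapt, the microtubule protein tau, was 10.6-fold higher. Tubb3, the neuronal tubulin, differed by less than 2-fold, at 5.54 and 4.84. Diencephalon was also above cortex for Nefl and Mapt, at 2.81 and 4.68. Of 16 pan-neural progenitor genes, 4 were higher and 5 lower. Sox2 was at 3.67 and 3.53, Nes, an intermediate filament of progenitors, was 4.14-fold lower, and Fabp7, a fatty acid binding protein of radial glia, was 3.55-fold higher.

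Of 20 cell cycle genes, 8 were lower and 1 higher, with a median of -0.91. Mki67, a nuclear protein of dividing cells, was at 4.47 and 6.03, and the replication licensing factor Mcm5 was 4.07-fold lower. Inhibitors of the cycle were higher. Cdkn1a, the p53-induced inhibitor, was at 2.71 in the Wi control and -1.27 in cortex, 15.7-fold higher, and Cdkn2a, a tumour suppressor locus induced in long culture, was at least 52.1-fold higher. In the sorted cultures Cdkn1a was between 1.61 and 2.44 and Cdkn2a between -1.66 and -0.48. Of 14 detected genes of inhibitors and p53 targets, 8 were higher and 0 lower. Aurkb was the 1 cell cycle gene higher in the culture, at -0.99 against -3.11. Scaled to the array medians, 15 cell cycle genes were lower.

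Of 12 detected glial genes, 7 were higher and 2 lower. Aldh1l1, Bcan and Slc1a2, genes of astrocytes and their precursors, were 44.7-fold, 39.1-fold and 17.4-fold higher. Olig1, of the oligodendrocyte lineage, was at least 83.2-fold higher. The 2 lower genes, Pdgfra (a difference of -2.59) and Cspg4, also mark that lineage, so its listed genes did not share a direction. Both are on the mesenchyme or pericyte lists too. Apoe, a lipid carrier of astrocytes, was at 5.16 in the Wi control and 0.98 in cortex. Aqp4, the water channel of mature astrocytes, was at -3.82 and -3.92, and Gfap, their filament protein, stayed low at -2.74 and -4.17. Sox9, which starts the glial programme, differed by less than 2-fold, at 2.48 and 2.94.

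Hypoxia-inducible and glycolytic genes were higher nearly throughout, and promoter sequences of 3 of them are shown because they hold the core of the hypoxia response element, ACGTG, which is bound by HIF factors. Capitals mark ACGTG on either strand, so CACGT on the printed strand counts, and the palindrome CACGTG, which is also the E-box, holds both. Each run is a RefSeq promoter of GRCm38.p6 from 250 bases before to 50 after the start of the gene, 5′ to 3′ on the gene's strand. The runs are Bnip3 at chr7:138909457-138909756 (minus strand), Ldha at chr7:46845554-46845853 (plus) and Egln3 at chr12:54203825-54204124 (minus). Ldha has 2 promoters in that set, and the first that holds the motif is shown.
Bnip3: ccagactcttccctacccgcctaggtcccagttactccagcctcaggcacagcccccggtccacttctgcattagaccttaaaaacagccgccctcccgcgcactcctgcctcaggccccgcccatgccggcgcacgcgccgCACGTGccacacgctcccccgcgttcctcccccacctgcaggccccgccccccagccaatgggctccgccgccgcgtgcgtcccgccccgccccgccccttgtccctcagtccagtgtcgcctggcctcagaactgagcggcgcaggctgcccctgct
Ldha: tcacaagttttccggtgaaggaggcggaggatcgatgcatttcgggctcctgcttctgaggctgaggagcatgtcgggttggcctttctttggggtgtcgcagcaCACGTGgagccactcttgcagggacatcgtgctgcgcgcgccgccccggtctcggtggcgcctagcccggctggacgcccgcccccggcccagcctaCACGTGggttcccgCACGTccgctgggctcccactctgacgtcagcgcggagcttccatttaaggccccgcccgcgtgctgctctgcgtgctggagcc
Egln3: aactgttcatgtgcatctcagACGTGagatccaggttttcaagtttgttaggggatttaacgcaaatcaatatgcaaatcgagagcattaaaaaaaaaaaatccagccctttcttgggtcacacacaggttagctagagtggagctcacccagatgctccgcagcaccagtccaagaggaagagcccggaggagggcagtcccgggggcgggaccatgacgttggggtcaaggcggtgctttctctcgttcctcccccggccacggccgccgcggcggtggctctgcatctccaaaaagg

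Of 21 list genes with a promoter in the table, 14 (66.7%) had ACGTG in this window, against 19.6% of 32851 promoters of the same length and 21.8% of 27025 genes. A match describes letters in the window and is not a bound site. The list was chosen for hypoxia-inducible and glycolytic genes, and promoters were not matched for base content. The share therefore describes the listed genes and not the difference between the groups. Of the 23 genes measured, 19 were higher in the Wi control and 0 lower, with a median of 1.68. Bnip3, a mitochondrial protein and HIF target, was at 7.15 in the Wi control and 3.71 in cortex, and its 3 probes lay between 3.44 and 3.55. Ldha, which makes lactate from pyruvate, was at 8.21 and 6.93, and Egln3, an oxygen-sensing hydroxylase, at 2.36 and -0.26. Slc2a3, the high-affinity glucose transporter, was 33.7-fold higher, Adm, the peptide adrenomedullin, 21.2-fold, and Vegfa, the vessel growth factor, 9.58-fold.

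All 5 cultures were above all 3 tissues for several of these genes. Bnip3 lay between 6.01 and 7.15 in the cultures and between 2.72 and 3.71 in the tissues, and Slc2a3 between 4.46 and 6.55 against 0.68 to 1.61. Adm lay between -0.86 and 1.92 against -4.92 to -2.48. The groups did not overlap for these genes, but the share of all genes that separate cultures from tissues was not counted. The bright glycolytic enzymes were less firm, since Ldha, Pgk1, Pgam1, Gpi1 and Gapdh were not called with quantile scaling, normexp background correction or the authors' deposited values. Under those settings 12 or 13 genes of the list were higher.

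**Figure D3:**
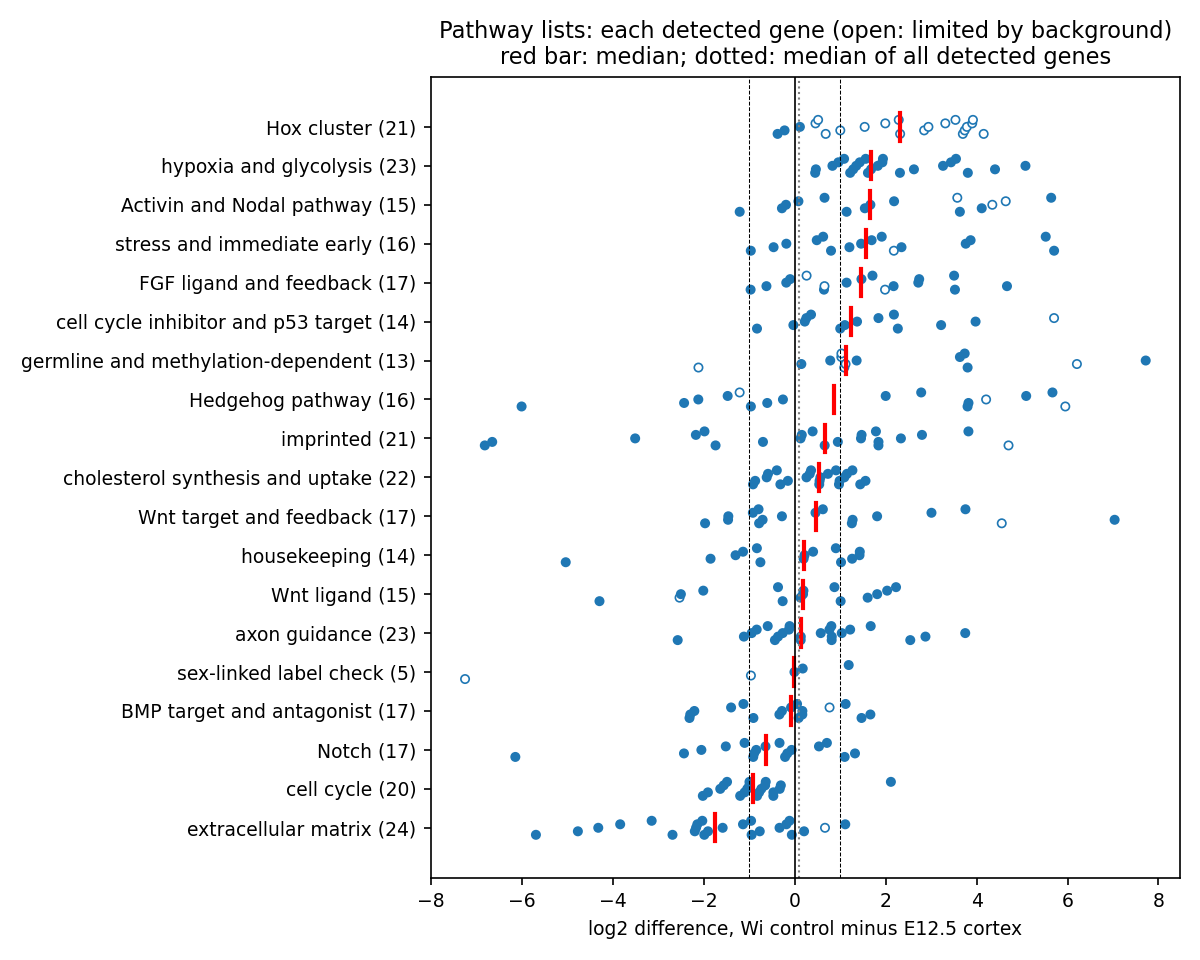
Difference between the Wi control and E12.5 cortex (log2, horizontal axis) for each detected gene of 19 pathway and control lists, with the number of detected genes in brackets. Open circles are differences limited by background, red bars are list medians, the dotted line is the median of all detected genes and dashed lines mark 2-fold. The hypoxia and glycolysis list has 23 genes above 0 and a median of 1.68, and the extracellular matrix list has the lowest median, -1.75.

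Stress genes were higher in part. Of 16 detected stress and immediate early genes, 10 were higher and 0 lower, with a median of 1.57. Hspb1, a small heat shock protein, was at 4.86 and -0.84, and Ddit4, an inhibitor of mTOR signalling, at 7.79 and 4.03. Fos, an immediate early gene, was 45.9-fold higher than in cortex, at 0.87, but lower than in the sorted cultures, where it lay between 2.09 and 4.38. Chac1, a target of the unfolded protein response, was 14.6-fold higher. Of 22 cholesterol synthesis genes, 5 were higher and 0 lower, and their median of 0.54 was nearer to that of all genes.

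Targets of Wnt signalling, the pathway that the inhibitor blocks, were mixed. Of 17 detected target and feedback genes, 7 were higher and 3 lower, and their median of 0.46 became -0.26 with the median of all probes and -0.03, -0.06 and -0.07 with quantile scaling, normexp correction and the authors' deposited values. The list therefore has no settled direction. Axin2, the most general target, was at -0.47 in the Wi control and 0.32 in cortex, a difference of less than 2-fold, and Lef1 was at 2.30 and 3.01. Sp5, a direct target, was 2.77-fold lower. Notum and Dkk1, secreted inhibitors of the pathway, were 8.03-fold and 13.5-fold higher. Among Wnt ligands, Wnt1, of midbrain and dorsal neural tube, was 4.68-fold higher on one probe, with 0.23 on the other, and Wnt5b was 5.68-fold lower. Wnt7a and Wnt7b, the ligands of cortical progenitors, differed by less than 2-fold. No untreated culture is in the series, so the effect of the inhibitor itself was not measured.

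Hedgehog pathway genes were split in a culture that had received no SAG, with 8 of 16 higher and 5 lower. Shh, the ligand, was at -0.34 and not well above background in cortex, at least 61.8-fold higher. The targets Gli1, Ptch1 and Hhip were 14.1-fold, 50.8-fold and 34.0-fold higher. Gli1 was at 2.48 in the Wi control, and between 2.40 and 3.79 in the 4 sorted cultures. Gas1 and Cdon, co-receptors that Hedgehog signalling lowers, were 4.36-fold and 5.41-fold lower, and Foxf1, a target in mesenchyme, 64.5-fold lower. With the median of all probes Gas1 was not called, at -0.51.

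Of 17 detected FGF ligands and feedback genes, 10 were higher and 0 lower, with a median of 1.47. Fgf15, a target and ligand of the forebrain, was 25.4-fold higher, and the feedback genes Etv4 and Spry2 were 11.5-fold and 11.3-fold higher. Fgf8 was 4.51-fold higher on its chosen probe, but its 3 probes ran from -3.10 to 3.77. Activin and Nodal pathway genes were higher in 10 of 15 cases and lower in 1. Nodal was 17.3-fold higher and its antagonists Lefty1 and Lefty2 were 49.8-fold and 12.4-fold higher, although no activin had been added. Pluripotent cells express these 3 genes too. BMP genes had 3 higher and 5 lower of 17, among them Id4, a cortical progenitor gene that was 4.63-fold lower. Of 17 Notch genes, 2 were higher and 5 lower, and Heyl, an effector found in vessels, was 70.9-fold lower.

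Axon guidance genes were close to the background, with 6 of 23 higher and 2 lower. Ntn1, the midline attractant, was 13.4-fold higher, and Epha4, a receptor at the surface of cortical axons, was 5.97-fold lower.

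Germline genes that DNA methylation keeps silent in somatic cells were measured next, and 2 promoters are shown because they hold the E-box CACGTG, marked in capitals. Both are RefSeq promoters of GRCm38.p6 with the same window, Sycp3 at chr10:88459337-88459636 (plus strand) and Mael at chr1:166238695-166238994 (minus strand).
Sycp3: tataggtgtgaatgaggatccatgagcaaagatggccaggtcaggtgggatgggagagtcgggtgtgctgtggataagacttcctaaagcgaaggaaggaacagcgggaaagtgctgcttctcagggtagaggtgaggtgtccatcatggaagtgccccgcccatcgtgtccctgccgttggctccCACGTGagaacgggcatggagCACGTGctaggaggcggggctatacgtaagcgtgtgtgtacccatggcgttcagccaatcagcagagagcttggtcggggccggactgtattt
Mael: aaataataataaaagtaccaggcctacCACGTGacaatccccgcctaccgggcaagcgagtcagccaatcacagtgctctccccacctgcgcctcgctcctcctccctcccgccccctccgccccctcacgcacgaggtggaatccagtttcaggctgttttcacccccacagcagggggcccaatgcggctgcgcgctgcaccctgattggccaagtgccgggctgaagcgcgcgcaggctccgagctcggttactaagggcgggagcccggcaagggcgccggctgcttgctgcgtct

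The E-box was in the promoters of 8 of 14 genes on this list (57.1%), against 7.15% of all promoters and 8.09% of all genes. Here too the share describes the listed genes and not the difference between the groups. Of 13 detected genes, 10 were higher in the Wi control and 1 lower. Sycp3, a protein of meiotic chromosome axes, was at 2.07 and -5.65, 211-fold higher, and Mael, a piRNA pathway gene, was at least 73.8-fold higher. The tubulin Tuba3a and the homeobox gene Rhox5 were 13.9-fold and 13.3-fold higher. Tuba3b, a close copy of Tuba3a, was 12.4-fold higher, and Slc25a31, an ADP/ATP carrier of germ cells, was at least 4.35-fold lower. Ddx4, Hormad1, Stk31, Tex101 and Dazl were higher by between 2.03-fold and 2.57-fold at low levels, and all of these folds but that of Ddx4 are lower bounds. Under quantile scaling, median scaling, normexp correction and the authors' deposited values, 5 genes of the list were higher. Tex101, Dazl, Rhox5, Tuba3a and Tuba3b have no CACGTG in the window, and Slc25a31 has it.

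Imprinted genes were split, with 9 of 21 higher and 6 lower. Plagl1, a zinc finger gene of the imprinted network, was at -0.62 in the Wi control and 6.20 in cortex, 113-fold lower (chr10:12850832-12850891, mm9). Its 4 probes lay between -7.17 and -0.60, and the other 7 arrays had it between 3.60 and 6.30. H19, a maternally expressed noncoding RNA, was at -1.62 and 5.04, with 7 probes between -6.66 and 0.73. Nnat and Peg13, both expressed from the paternal copy, were 11.4-fold and 219-fold lower, and Nnat was between 5.95 and 6.93 in the sorted cultures. The Wi control was the lowest of the 8 arrays for Plagl1, H19, Nnat and Peg13. Peg13 was not on the list and was chosen after its values were seen. Peg10, Peg3 and Meg3 were 14.1-fold, 6.95-fold and 5.04-fold higher. Imprinted state was not measured.

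Checks of the labels used genes of known origin. Hprt, which recycles purines, was at -1.42 in the Wi control and 3.62 in cortex, 32.9-fold lower (chrX:50374757-50374816, mm9). E14Tg2A is known as a line that lacks a functional Hprt. The sorted K/l-EB5 cultures were between -1.54 and -1.07, and diencephalon and eye were at 2.12 and 3.00. Xist, the RNA of the inactive X, was not well above background in the Wi control, at -8.54, and was at 0.17 in cortex. Embryos were of mixed sex and the line is male. The Y-linked Ddx3y was at -0.07 on both sides. Eif2s3y, also Y-linked, was called higher in the Wi control, at a difference of 1.19, but not with median scaling. The Y-linked Kdm5d and Uty were not called. Among 14 housekeeping genes, 4 were higher and 4 lower, and chromosome medians relative to all genes lay between -0.16 (chromosome 16) and 0.19 (chromosome 7).

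The largest differences were mostly in members of these lists. Dppa5a, Esrrb, Fgf4, Tdh, Zfp42 and Pou5f1 were among the 12 largest in the higher direction, and most of the 12 largest in the lower direction were red blood cell genes. Outside the lists, Tnfsf10, a death ligand of the TNF family, was at 2.64 in the Wi control and not well above background in cortex, at least 486-fold higher, and at most -6.42 on the other 6 arrays. Syt10, a synaptotagmin, was at 6.44 and -1.11, 188-fold higher, with at most 1.16 elsewhere. Patl2, an RNA-binding protein of oocytes, was at least 269-fold higher. Pf4, a platelet chemokine, was at least 735-fold lower.

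**Figure D4:**
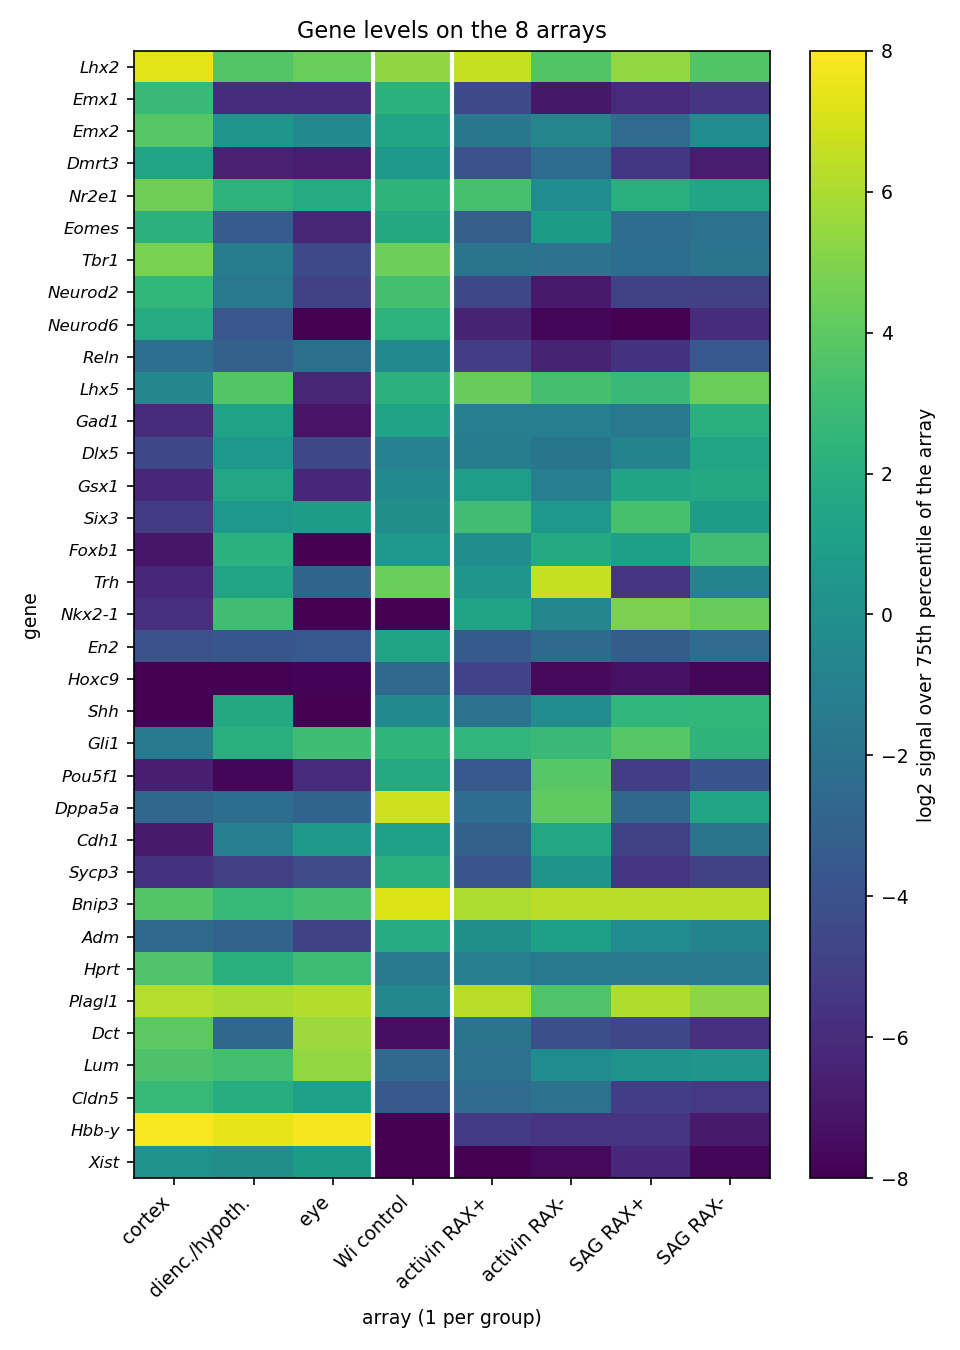
Level of selected genes (rows) on the 8 arrays (columns), 1 array per group, as log2 signal over the 75th percentile of the array, with the Wi control between white lines. The Wi control shares Emx1, Tbr1, Neurod2 and Neurod6 with cortex, Pou5f1 and Dppa5a with RAX-negative cells after activin, and low Hprt with the other cultures.

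Over 28716 genes, levels in the Wi control correlated with those in cortex at Pearson r = 0.921 and Spearman rho = 0.920. With diencephalon the r was 0.926 and with the eye 0.900. These values are across genes, which are not independent, all on arrays of 1 design. Cortex itself correlated with diencephalon at 0.962 and with the eye at 0.949, and the 4 sorted cultures with cortex at 0.933 to 0.938. The median absolute difference from the Wi control was 0.874 for cortex, 0.749 for diencephalon and 0.778 for the eye. Each gene had a tissue nearest in level to the Wi control, which was cortex for 29.9% of genes, diencephalon for 34.8% and the eye for 35.2%. The measures put the tissues in different orders, and in none of them was cortex the closest.

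Genes restricted to 1 tissue were chosen on the tissue arrays alone, as at least 4-fold higher in 1 tissue than in both others, and the cultures did not enter the choice. Of 237 cortex-restricted genes, 136 (57.4%) were well above background in the Wi control, against 92.6% of 431 genes for diencephalon and 71.2% of 548 for the eye. Over all 34631 gene names on the array, detected in a tissue or not, the share was 72.3%. No more than 2-fold below the level of the tissue were 64 cortex-restricted genes (27.0%), 44.5% of the diencephalon genes and 13.7% of the eye genes. In the 4 sorted cultures 2.95% to 15.6% of the cortex-restricted genes reached that level. Many cortex-restricted genes were dim in cortex itself, with a median level of -3.12. Among the 140 with a gene name, the 8 with the lowest Wi levels, which include the olfactory receptors Olfr1182 and Olfr243, were all not well above background in the culture.

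Among genes at or above the 75th percentile in their own tissue, a limit chosen after seeing the data, 65 were restricted to cortex. All 65 were well above background in the Wi control, and 29 (44.6%) were no more than 2-fold below their cortex level. In the 4 sorted cultures 3.08% to 10.8% of these genes reached that level. Choosing genes for being high in cortex raises their cortex value, so the shares are a description and understate the culture. For 171 bright diencephalon genes the Wi control reached that level in 42.7%, and RAX-negative cells after SAG in 71.3%. For 203 bright eye genes the Wi control reached it in 9.85%. For the Wi control the shares for cortex and diencephalon were thus close under this limit, at 44.6% and 42.7%. Over all restricted genes they were apart, at 27.0% and 44.5%.

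The cortex-restricted genes with the highest Wi levels included Aldoc, Lhx2, Nfib, Tbr1, Slc14a2, Id4 and Celsr1. Nfib, a factor of cortical neurons and glia, was at 5.27 in the Wi control and 5.95 in cortex, and between -0.54 and 2.77 in the sorted cultures. Nfix, its relative, which was chosen after its values were seen, was at 2.35 and 2.64, and between -4.08 and -3.37 in those cultures. Aldoc, the aldolase of astrocytes and another glycolytic enzyme, was at 7.18 and 5.44. Slc14a2, a urea transporter, was at 4.15 and 0.41, and its 2 probes gave 1.91 and 3.74. Others chosen after their values were seen were far below cortex, among them Ttr, Slc9b2 (a sodium and proton exchanger) at -4.42 against 0.63, and Rgcc (a cell cycle regulator) at 0.23 against 4.49. Ror2, a receptor for Wnt5a, was at 0.52 against 3.86.

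**Figure D5:**
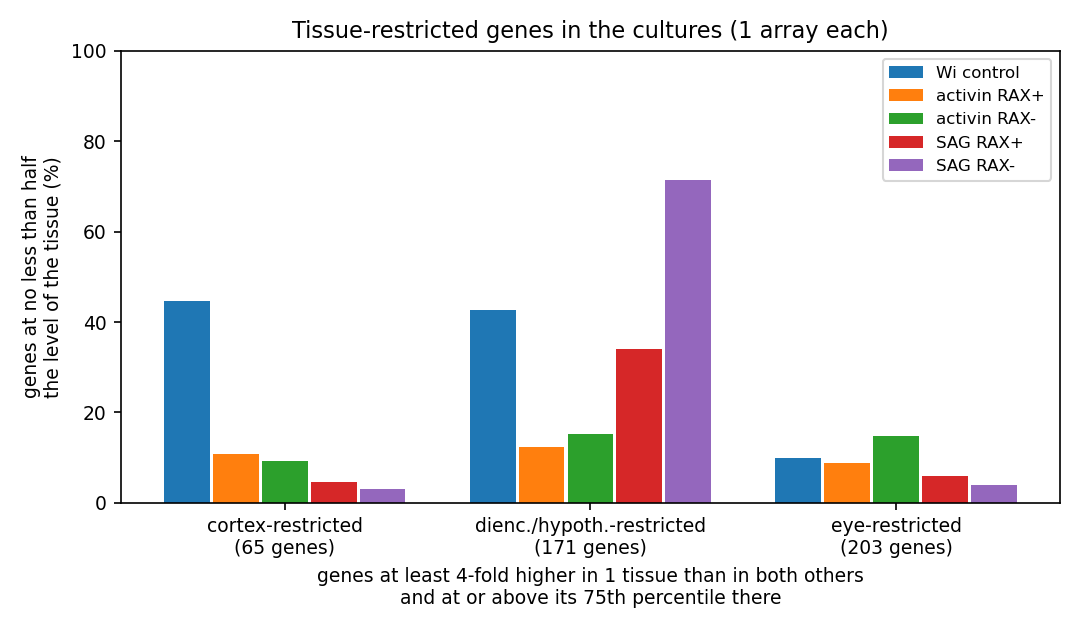
Share of tissue-restricted genes (percent, vertical axis) that each of 5 cultures expressed at no more than 2-fold below the level of the tissue, for bright genes restricted to cortex (65), diencephalon with hypothalamus (171) and eye (203), with 1 array per bar and no error bar. The Wi control reached 44.6% for cortex, above the 4 sorted cultures, 42.7% for diencephalon and 9.85% for the eye; over all restricted genes, dim ones included, the values were 27.0%, 44.5% and 13.7%.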

How the data were processed

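The 8 arrays were Agilent single-colour scanner outputs, whose deposited intensity is the background-corrected processed signal of each spot (the file headers name Feature Extraction 10.7.3.1, and the submitters' processing notes name version 9.1 and limma). The authors' deposited value table holds log2 values, with its normalization not given in the sources used here, and served as an alternative. Control spots and outlier flags were left out, spots of a probe were averaged, and log2 of the intensity minus the 75th percentile of its array was taken (Python 3.11.15, numpy 2.4.6, pandas 2.3.3). Normexp correction was run in limma 3.58.1 (R 4.3.3), and quantile scaling was written in Python. Of 55681 probes, 28361 were named through RefSeq accessions and 27320 kept the file's name. Where the dimmer side was not well above background, the fold is "at least", against the higher of its own signal and the lowest signal well above background. Probe positions are those of the files (mm9). The code was tested on simulated data. Genes named are the list members, the 12 largest differences each way, and the 8 highest and 8 lowest cortex-restricted genes in the Wi control; members and lists were chosen with earlier results of these data known, and a few genes are not reported here. With 1 array per group no test was run.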

Additional observations from a re-analysis of the deposited data

How the results depend on the processing

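With 1 array per group, leaving out an array or a block for the slide could not be fitted. No paired analysis was possible because each group has 1 array. Against 6219 higher and 4734 lower genes, median scaling gave 7478 lower and a median difference of -0.29 (0.10 otherwise), normexp correction 3471 higher and 2976 lower, and a log2 difference of 2 gave 2374 and 1221. Quantile scaling, the authors' deposited values, centring, no filter, the median of all probes and the brightest probe over both arrays kept both counts within 1.5 times. The share of cortex-restricted genes well above background in the Wi control, 57.4%, became 96.9% with normexp correction (65 genes), 82.1% with the authors' values (123), 75.8% for a 2-fold choice (924) and 100.0% for bright genes, a limit added after seeing the data. The sign turned for Kdr (-1.05), Lhx6 (-0.92), Nsg2 (-1.38), Robo1 (-0.62) and Trp63 (-0.70) with the median of all probes, and for Trp73 (-0.31) with the brightest probe over both arrays. The cause was not tested. Of 405 called named genes, 229 were called under all 9 alternatives.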
